A study of Mus musculus with 18 samples.

Results

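Interferon-stimulated genes were followed through a study of mouse gliomas and of PLX3397, a small-molecule inhibitor of CSF1R, the receptor that macrophages and microglia need to survive, which also acts on KIT and FLT3. The group holds 44 genes, taken by name from the deposited tables: 44 of the 35869 genes listed for the Ras tumours and for the cell lines, 43 of 18268 for the CD11b+ cells (Mx1 was not listed), 43 of 28692 for the 10x cells (Mx2 was not listed) and 44 of 28474 for the Drop-seq cells. The rule uses names only. Ras tumours were gliomas driven by HRasV12 with a dominant negative p53, grown in Boy/J mice that were gavaged daily with PLX3397 at 100 mg/kg (n = 4) or with vehicle (n = 4), from day 7 after implantation until they were moribund, and whole tumour tissue was sequenced. CD11b+ cells were bead-selected after enzymatic dissociation from PDGFB-driven tumours of Boy/J mice treated for 3 days from day 14 with PLX3397 (n = 2) or vehicle (n = 1). The cultured lines came from Ras tumours (n = 2) and PDGF tumours (n = 3). The media differed, with EGF and FGF for the Ras lines and PDGF-AA and PDGF-BB among the factors for the PDGF lines, so that driver and medium cannot be told apart. Untreated Ras tumour tissue was dissociated with collagenase for 1 library of 10x single cells and 1 of Drop-seq single cells. These libraries are separate samples, and a shared tumour was not assumed. The titles of the Ras tumour controls name vehicle while their treatment label reads untreated, and they were taken as vehicle. The labels give no ages, and their titles number the mice and the lines of a group, so p-values measure the spread between those numbered samples.

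Interferons are cytokines released on viral infection or when nucleic acids reach the wrong compartment. Type I interferons act through IFNAR1 and IFNAR2 and the kinases JAK1 and TYK2, and the resulting complex, which holds STAT2 and IRF9, binds interferon-stimulated response elements. Interferon gamma, made by T and NK cells, acts through IFNGR1 and IFNGR2 on genes with gamma-activated sites. The genes they switch on include sensors of nucleic acids, transcription factors that widen the response, proteins that block viral replication, the ubiquitin-like ISG15 with its enzymes, and GTPases that attack the vacuoles of intracellular microbes. In brain tumours, both macrophages and tumour cells can respond to interferon.

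The members lie on 13 chromosomes in the GRCm38 annotation, and many are neighbours. Ifit2, Ifit3 and Ifit1 lie within 0.0993 Mb of chromosome 19, Gbp7 and Gbp3 are 9.88 kb apart on chromosome 3 with Gbp2 a further 47.4 kb on, and Ifitm2, Ifitm1 and Ifitm3 sit side by side on chromosome 7. Rsad2 and Cmpk2 are 12.8 kb apart on chromosome 12. Dtx3l and Parp9 overlap on opposite strands of chromosome 16 (a gap of -682 bases). Without a stated strand setting, reads from that overlap cannot be told apart. Related neighbours of the Oas, Ifitm, Ifit, Gbp and Mx families may share reads. Their sequences were not compared, and their counts are uncertain to that degree. Mx2 is annotated as a polymorphic pseudogene.

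RefSeq promoter windows (GRCm38.p6, 250 bases before to 50 after the start) were at hand for 35 of the 44 members, in 43 windows. The letters GAAA, 2 bases of any kind and GAAA again, a form of the interferon-stimulated response element, were found on either strand in 19 of the 43 windows (44.2%), against 1131 of all 32851 windows (3.44%). By gene, 18 of 35 members (51.4%) held it, against 1079 of 27025 genes (3.99%). The letters TTCNNNGAA, a form of the gamma-activated site, were in 10 of 43 member windows (23.3%) and in 2726 of all windows (8.30%). Isg15 held 3 matches of the response element in its window, and Ifit1, Ifit3, Oas1a, Bst2, Ifitm3, Gbp3 and Irgm1 held 2 each. A match describes letters in a window and not a bound site. The windows of the members with the smallest p-values between the cultured lines are shown because that comparison held the members' largest fold changes, and these windows differ in their matches. Gbp3 has overlapping matches on the reverse strand, which start 45 and 39 bases before the start, Ifitm2 has a match 46 bases before it, Ifih1 has a match 32 bases after it, and Oasl2 has none. Capitals mark the matches, and none of these windows held the letters of the gamma-activated site.
Gbp3 (chr3:142559794-142560093, plus strand): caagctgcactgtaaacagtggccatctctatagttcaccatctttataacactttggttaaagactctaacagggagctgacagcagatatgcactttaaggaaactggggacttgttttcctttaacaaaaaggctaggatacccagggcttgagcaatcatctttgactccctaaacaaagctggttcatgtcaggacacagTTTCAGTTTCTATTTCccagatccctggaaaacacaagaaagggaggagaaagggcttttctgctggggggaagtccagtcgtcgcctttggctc
Ifitm2 (chr7:140955912-140956211, minus strand): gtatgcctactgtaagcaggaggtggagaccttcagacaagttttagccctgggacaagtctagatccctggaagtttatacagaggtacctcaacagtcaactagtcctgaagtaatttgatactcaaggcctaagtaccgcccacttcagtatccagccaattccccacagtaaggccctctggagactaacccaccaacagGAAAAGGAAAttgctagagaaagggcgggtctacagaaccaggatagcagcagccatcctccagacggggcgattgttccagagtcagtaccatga
Oasl2 (chr5:114896684-114896983, plus strand): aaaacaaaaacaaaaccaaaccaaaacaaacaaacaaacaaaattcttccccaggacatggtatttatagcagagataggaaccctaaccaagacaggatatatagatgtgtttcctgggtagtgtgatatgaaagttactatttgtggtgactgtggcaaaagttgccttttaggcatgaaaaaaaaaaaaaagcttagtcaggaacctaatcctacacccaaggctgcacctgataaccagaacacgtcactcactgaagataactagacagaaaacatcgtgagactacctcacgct
Ifih1 (chr2:62646206-62646505, minus strand): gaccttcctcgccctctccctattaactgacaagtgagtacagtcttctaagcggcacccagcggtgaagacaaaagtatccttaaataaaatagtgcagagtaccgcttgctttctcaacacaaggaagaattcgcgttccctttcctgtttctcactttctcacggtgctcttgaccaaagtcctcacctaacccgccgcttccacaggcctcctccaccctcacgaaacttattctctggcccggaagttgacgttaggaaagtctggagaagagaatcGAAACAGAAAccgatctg

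Totals of the deposited counts were 26.8 to 30.9 M (mega) for libraries of CD11b+ cells, 31.3 to 35.9 M for Ras tumours and 32 to 35.9 M for lines. Levels are given as CPM, counts per M of the TMM-adjusted library size. Differences between groups are log2 fold changes, each with its standard error (SE), from edgeR's quasi-likelihood test, with p-values adjusted by Benjamini-Hochberg over all genes tested. Csf1r itself stood at 24.6 to 173 CPM in PLX3397 tumours, against 155 to 293 CPM in vehicle tumours, and the summed level of 11 macrophage markers ran from 607 to 2512 CPM in PLX3397 tumours, against 1805 to 4215 CPM in vehicle tumours. In whole tissue, fewer cells of a type and less RNA per cell cannot be told apart. The Y-linked gene Ddx3y was detected in PLX3397 tumours 1 and 2 and in vehicle tumours 1 and 2 and was at most 0.135 CPM in the other 4, a split that the labels do not explain.

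The first question was whether interferon-stimulated genes differ between Ras tumours of mice that received PLX3397 until moribund and those of vehicle mice. No member passed the test. Fold changes lay on the higher side for most members, with Mx2, Ifi44 and Ifit3 at the top, and Ifitm1, Irf8 and Irf1 at the bottom. Of the 44 members, all of them tested, 0 were called at an adjusted p under 0.05, against 0 of 18366 genes (0%). DESeq2 called 0 members among 169 genes, and limma with sample quality weights 0 among 377. At an unadjusted p under 0.05 were 2 members, against 3.53% of all genes: Mx2 on the higher side, against 0.414%, and Ifitm1 on the lower, against 3.11%. The fold change was above 0 for 35 of 44 members (79.5%), against 50.3% of all genes, and the median was 0.21 for the members and 0.0015 for all genes. Members share libraries and move together, so that count has fewer independent parts than members. The median was 0.03 without PLX3397 tumour 4, 0.06 without vehicle tumour 2, 0.39 without PLX3397 tumour 2 and 0.49 without vehicle tumour 1, and no other left-out library moved it as far.

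**Figure D1:**
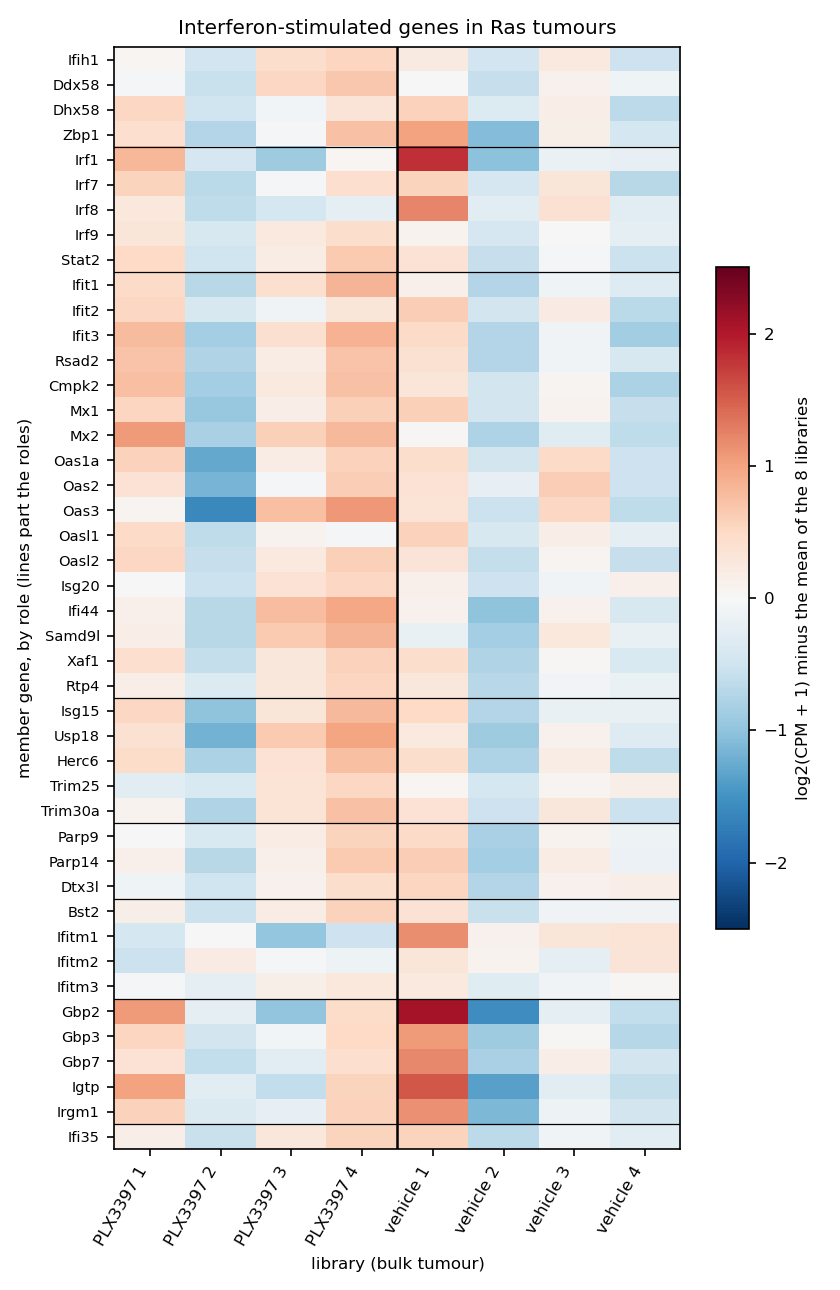
Each row is a member and each column a Ras tumour library, PLX3397 tumours left of vehicle tumours; colour gives log2(CPM + 1) minus the mean of the row over the 8 libraries. Columns differ more than groups do: PLX3397 tumour 4 and vehicle tumour 1 are high for most members, PLX3397 tumour 2 and vehicle tumour 2 are low, and the GTPases and Irf1 are highest in vehicle tumour 1.

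Single libraries set much of this picture. Summed over the members, the level was 5909, 3160, 4959 and 6616 CPM in PLX3397 tumours 1 to 4, against 7292, 2883, 4601 and 3619 CPM in vehicle tumours 1 to 4, so that the highest and the lowest sum were both vehicle tumours. PLX3397 tumour 4 was highest for 25 members and vehicle tumour 1 for 14, while vehicle tumour 2 was lowest for 23 and PLX3397 tumour 2 for 14. The 8 libraries therefore overlapped for 43 of the 44 members. In 0 members was every PLX3397 tumour above every vehicle tumour (0.446% of all genes), and in 1, Ifitm1, every PLX3397 tumour was below (2.09% of all genes). Among tumours with Ddx3y, 15 of 44 members were higher under PLX3397, with a median log2 difference of -0.09, and among tumours without it 40 of 44 were, with a median of 0.48. Each such value rests on 2 tumours against 2.

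Among the transcription factors, Irf8, which directs the development of macrophages and dendritic cells, had 71.2, 37.9, 43.2 and 50.3 CPM in PLX3397 tumours, against 139.5, 48.9, 77.1 and 48.8 CPM in vehicle tumours (log2 fold change -0.63, SE 0.37). The groups overlapped, with vehicle tumour 1 far above the rest. Irf9, the DNA-binding part of the type I complex, had 104, 63.5, 99.4 and 114 CPM in PLX3397 tumours, against 89.4, 63, 83.6 and 71.6 CPM in vehicle tumours (0.31, SE 0.20). Its partner Stat2 had 240.2, 119, 193 and 267 CPM in PLX3397 tumours, against 219, 113, 165 and 117 CPM in vehicle tumours (0.42, SE 0.30). For both, PLX3397 tumours 1, 3 and 4 were above PLX3397 tumour 2, which sat among the low vehicle tumours. Irf1, an early target of interferon gamma, had 143, 60.1, 42.8 and 82.9 CPM in PLX3397 tumours, against 288, 39.2, 71.4 and 70.1 CPM in vehicle tumours (-0.51, SE 0.65). Irf7, which drives interferon alpha genes, differed by 0.12 (SE 0.35). The adjusted p was 0.9998 for each of these factors by the edgeR test. Irf8 and Irf1 were thus below 0 where Irf9, Stat2 and Irf7 were above it.

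Of the antiviral effectors, 15 of 17 were above 0, with a median of 0.37. Mx2, one of the dynamin-like Mx proteins, had 39.9, 10.1, 28.3 and 33.3 CPM in PLX3397 tumours, against 18.8, 10.4, 14.7 and 11.6 CPM in vehicle tumours, a log2 fold change of 1.01 (SE 0.40, unadjusted p = 0.0347, adjusted p = 0.9998 by the edgeR test). PLX3397 tumours 1, 3 and 4 were above every vehicle tumour, and PLX3397 tumour 2 was below them all. Ifi44 had 120.1, 67.5, 189 and 216 CPM in PLX3397 tumours, against 119, 54.5, 119 and 83.4 CPM in vehicle tumours (0.66, SE 0.39). Ifit3, which with the other IFIT proteins binds foreign RNA, had 334, 108, 256 and 356 CPM in PLX3397 tumours, against 269, 115, 182 and 105 CPM in vehicle tumours (0.65, SE 0.43). Its neighbour Ifit1 had 151, 66.4, 143 and 196 CPM in PLX3397 tumours, against 119, 65.2, 101 and 86.7 CPM in vehicle tumours (0.58, SE 0.32). The same PLX3397 tumour 2 was among the low vehicle tumours for all 3 genes. Samd9l had 79.4, 43.4, 112 and 129 CPM in PLX3397 tumours, against 61.9, 38.7, 85 and 62.1 CPM in vehicle tumours (0.55, SE 0.36). Cmpk2, a nucleotide kinase beside Rsad2, had 82.3, 26.3, 57.7 and 81.5 CPM in PLX3397 tumours, against 60.1, 35, 50.6 and 27.5 CPM in vehicle tumours (0.52, SE 0.39). Rsad2, or viperin, which makes an antiviral nucleotide, differed by 0.48 (SE 0.36) and its libraries overlapped too. Oas2 (-0.06) and Oasl1 (-0.05) were the effectors below 0, while the other Oas genes, Ifit2, Mx1, Isg20, Xaf1 and Rtp4 lay between 0.12 and 0.41.

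Ifitm1 had the lowest fold change of the members. The IFITM proteins sit in membranes and hinder the fusion of viruses. Ifitm1 had 14.6, 19.9, 9.85 and 13.8 CPM in PLX3397 tumours, against 46.2, 21.8, 24.9 and 25.6 CPM in vehicle tumours, and each PLX3397 tumour was below each vehicle tumour (log2 fold change -1.03, SE 0.30, unadjusted p = 0.00877, adjusted p = 0.770 by the edgeR test). Ifitm3 had 404, 352, 459 and 498 CPM in PLX3397 tumours, against 496, 335, 394 and 423 CPM in vehicle tumours (0.06, SE 0.16) and Ifitm2 112, 187, 160.0 and 149.7 CPM in PLX3397 tumours, against 201, 173, 137 and 204 CPM in vehicle tumours (-0.23, SE 0.19). Both overlapped. Bst2, or tetherin, which holds budding virus at the cell surface, differed by 0.20 (SE 0.27).

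Among the GTPases, which interferon gamma induces strongly, Gbp2 and Igtp had the largest SEs of the members. Gbp2 had 447, 179, 107 and 290.4 CPM in PLX3397 tumours, against 906, 71.8, 182 and 138 CPM in vehicle tumours (-0.34, SE 0.80). Igtp had 252, 103, 82 and 185 CPM in PLX3397 tumours, against 372, 48.3, 105 and 83.4 CPM in vehicle tumours (0.03, SE 0.65). Vehicle tumour 1 was the highest of the 8 for each of the 5 GTPases and for Irf1. Gbp3 (0.09), Gbp7 (-0.21) and Irgm1 (0.10) had fold changes smaller than their SE. Ifng itself, the ligand, was at 1.53, 0.414, 0 and 0.238 CPM in PLX3397 tumours, against 3.79, 0, 0.442 and 0.0676 CPM in vehicle tumours, highest in the same vehicle tumour. The summed level of 6 T cell markers was 30.3, 13.3, 3.68 and 10.9 CPM in PLX3397 tumours, against 20.1, 9.67, 21.5 and 6.55 CPM in vehicle tumours. That of 8 NK cell markers was 62.4, 32.7, 7.81 and 25.3 CPM in PLX3397 tumours, against 27.3, 6.94, 44.8 and 11.1 CPM in vehicle tumours. The part of either cell type in the GTPase values was not tested.

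The ISG15 and ubiquitin genes had a median log2 fold change of 0.38, with 5 of 5 above 0, the sensors 0.20 with 4 of 4, and the ADP-ribosylation genes 0.08 with 2 of 3. The RNA sensors Ddx58 (RIG-I; 0.35, SE 0.28) and Ifih1 (MDA5; 0.28, SE 0.28), their regulator Dhx58 (0.11) and the Z-form nucleic acid sensor Zbp1 (0.07) were all above 0 and all overlapped. Isg15 had 142, 48.5, 122 and 173 CPM in PLX3397 tumours, against 140.1, 59, 87 and 86.5 CPM in vehicle tumours (0.38, SE 0.40). Usp18, which removes ISG15 and damps the type I receptor, differed by 0.57 (SE 0.44), the ISG15 ligase Herc6 by 0.40, and the ubiquitin ligases Trim25 and Trim30a by 0.13 and 0.24. Parp9 and Dtx3l, which act as a pair, differed by 0.15 and -0.06, Parp14 by 0.08, and Ifi35 by 0.21. Isg15 was above the rest in PLX3397 tumour 4 and lowest in PLX3397 tumour 2.

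Upstream of the members, a list of 39 ligands, receptors, kinases and sensors had 31 tested genes, of which 0 were called in either direction. At an unadjusted p under 0.05 by the edgeR test were 0 higher and 5 lower, against 0.414% and 3.11% of all genes. The median was -0.22. The receptor chain Ifngr1 had 45.5, 83.8, 48.5 and 50.05 CPM in PLX3397 tumours, against 86.6, 93.3, 71.6 and 89.6 CPM in vehicle tumours (-0.58), and Ifngr2 had 57.4, 66.5, 57.5 and 58.4 CPM in PLX3397 tumours, against 89.3, 61.6, 69.8 and 114 CPM in vehicle tumours (-0.48). Ifngr2 overlapped, and for Ifngr1 the exception was PLX3397 tumour 2. Ifnar1 (mean 69.0 CPM in PLX3397 tumours, against 79.4 CPM in vehicle tumours) and Ifnar2 (49.7, against 59.0 CPM) differed by -0.20 and -0.25. Irf5, Tlr9 and Il10rb were the 3 genes with each PLX3397 tumour below each vehicle tumour, against 2.09% of all genes. Of the 9 interferon genes in the list, the highest group mean was that of Ifng in vehicle tumours, 1.07 CPM, and Ifnb1 was at 0.170 CPM or less in every tumour.

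The second question was whether CD11b+ myeloid cells, which include the macrophages and microglia that PLX3397 targets, differ in these genes after 3 days of drug. No member was called, and most were lower in both PLX3397 libraries than in the lone vehicle library. Of 43 members tested, 0 were called, against 956 of 15052 genes (6.35%), or 4.57% higher and 1.78% lower. At an unadjusted p under 0.05 were 6 members, all lower, against 29.3% of all genes in either direction and 11.1% on the lower side. The fold change was above 0 for 3 of 43 members, against 50.5% of all genes, and the median was -0.29 for the members and 0.0066 for all genes. Both PLX3397 libraries were below the vehicle library for 35 members, against 42% of all genes, and above it for 1, Isg20, against 41.6%. With 1 vehicle library, its own deviation enters every member alike, and its variation was assumed to be that of the PLX3397 pair.

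The lowest fold change was that of a GTPase. Gbp7 had 177 and 181 CPM in the PLX3397 libraries, against 302 CPM in the vehicle library (-0.75, SE 0.15, adjusted p = 0.0562 by the edgeR test). Gbp3 had 102 and 97.7 CPM in the PLX3397 libraries, against 155 CPM in the vehicle library (-0.63, SE 0.14, adjusted p = 0.07 by the edgeR test). Gbp2 had 131 and 143 CPM in the PLX3397 libraries, against 191 CPM in the vehicle library (-0.48, SE 0.15) and Igtp 91 and 87.3 CPM in the PLX3397 libraries, against 114 CPM in the vehicle library (-0.36, SE 0.14). The PLX3397 pair was close together for each of them, well apart from the vehicle library. Gbp7 passed the threshold with DESeq2 (adjusted p = 0.0146), and Gbp7 and Gbp3 did so with edgeR when no filter on low counts was set (adjusted p = 0.0303 and 0.0443), so this call depends on the setting.

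The sensors did not pass the test either. Zbp1 had 184 and 154 CPM in the PLX3397 libraries, against 249.9 CPM in the vehicle library (-0.56, SE 0.18). Ifih1 had 170.4 and 152 CPM in the PLX3397 libraries, against 228 CPM in the vehicle library (-0.50, SE 0.16). Dhx58 had 126 and 94.4 CPM in the PLX3397 libraries, against 161 CPM in the vehicle library (-0.55, SE 0.22). Each had an adjusted p between 0.125 and 0.185 by the edgeR test and the vehicle library on top. Isg15 had 162 and 151 CPM in the PLX3397 libraries, against 214 CPM in the vehicle library (-0.45, SE 0.15), Dtx3l 176 and 156 CPM in the PLX3397 libraries, against 215 CPM in the vehicle library (-0.37, SE 0.16) and Parp9 163 and 135 CPM in the PLX3397 libraries, against 197 CPM in the vehicle library (-0.40, SE 0.18). By role, the median was -0.53 for sensors, -0.48 for GTPases, -0.37 for ADP-ribosylation, -0.31 for the ISG15 system, -0.30 for membrane proteins, -0.25 for transcription factors and -0.20 for antiviral effectors.

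Of 16 effectors tested, 9 had both PLX3397 libraries below the vehicle library, against 42% of all genes. Oas1a (-0.40), Ifit2 (-0.33) and Mx2 (-0.32) were the lowest. Others were close. Rsad2 had 335 and 354 CPM in the PLX3397 libraries, against 346 CPM in the vehicle library, and Ifit1 had 145 and 146 CPM in the PLX3397 libraries, against 151 CPM in the vehicle library. Oas3 (0.01), Isg20 (0.11) and Bst2 (0.03) were the members above 0. Irf7, at 607 and 466 CPM in the PLX3397 libraries and 644 CPM in the vehicle library, and Irf8, at 373 and 283 CPM and 374 CPM, did not pass the test. For both genes PLX3397 library 2 was the low one. Ifitm1 had 65.5 and 106 CPM in the PLX3397 libraries, against 136 CPM in the vehicle library (-0.66, SE 0.31), with the PLX3397 pair far apart. Per kb of annotated exon, Ifitm3, Ifitm2 and Bst2 were the highest members in the PLX3397 libraries and in the vehicle library.

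Of the same upstream list, 32 genes were tested in these cells. Both PLX3397 libraries were below the vehicle library for 22 of them, against 42% of all genes. Both were above it for 2, against 41.6%. Mb21d1, which encodes the DNA sensor cGAS, was at 35.1 and 32.4 CPM in the PLX3397 libraries, against 63.5 CPM in the lone vehicle library (-0.91). Myd88, the adaptor of Toll-like receptors, was at 109 and 111 CPM, against 199.8 CPM (-0.86). Rnaseh2b, a subunit of RNase H, which clears RNA paired with DNA, was at 13.2 and 12.6 CPM, against 27.5 CPM (-1.09). These genes were chosen after their values were seen. The median of the list was -0.21. Marker lists of other cells moved in the same libraries. The summed level of 8 markers of dividing cells was 254 and 378 CPM in the PLX3397 libraries, against 1122 CPM in the vehicle library. For 8 astrocyte markers the sums were 715 and 682 CPM, against 116 CPM. For 8 neuron markers they were 128 and 142 CPM, against 29.9 CPM. For 8 markers of oligodendrocyte precursors they were 134 and 137 CPM, against 31.3 CPM. The 9 pericyte or fibroblast markers summed to 660 and 1211 CPM, against 192 CPM. Sums for oligodendrocytes, endothelial cells and neural progenitors or glioma were also higher in both PLX3397 libraries. So were those for neutrophils (534 and 918 CPM, against 505 CPM) and conventional dendritic cells (265 and 380 CPM, against 150 CPM). Plasmacytoid dendritic cells (245 and 274 CPM, against 187 CPM) and T cells (102 and 77.4 CPM, against 62.9 CPM) shared that direction. Sums for NK and erythroid cells were lower in both. Those for microglia, macrophages, monocytes and B cells overlapped. The part of any of these shifts in the member values was not tested. Ptprc, at 546 and 542 CPM under PLX3397 and 937 CPM under vehicle, and Csf1r, at 1785 and 1581 CPM under PLX3397 and 2033 CPM under vehicle, did not pass the test (-0.79 and -0.27).

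**Figure D2:**
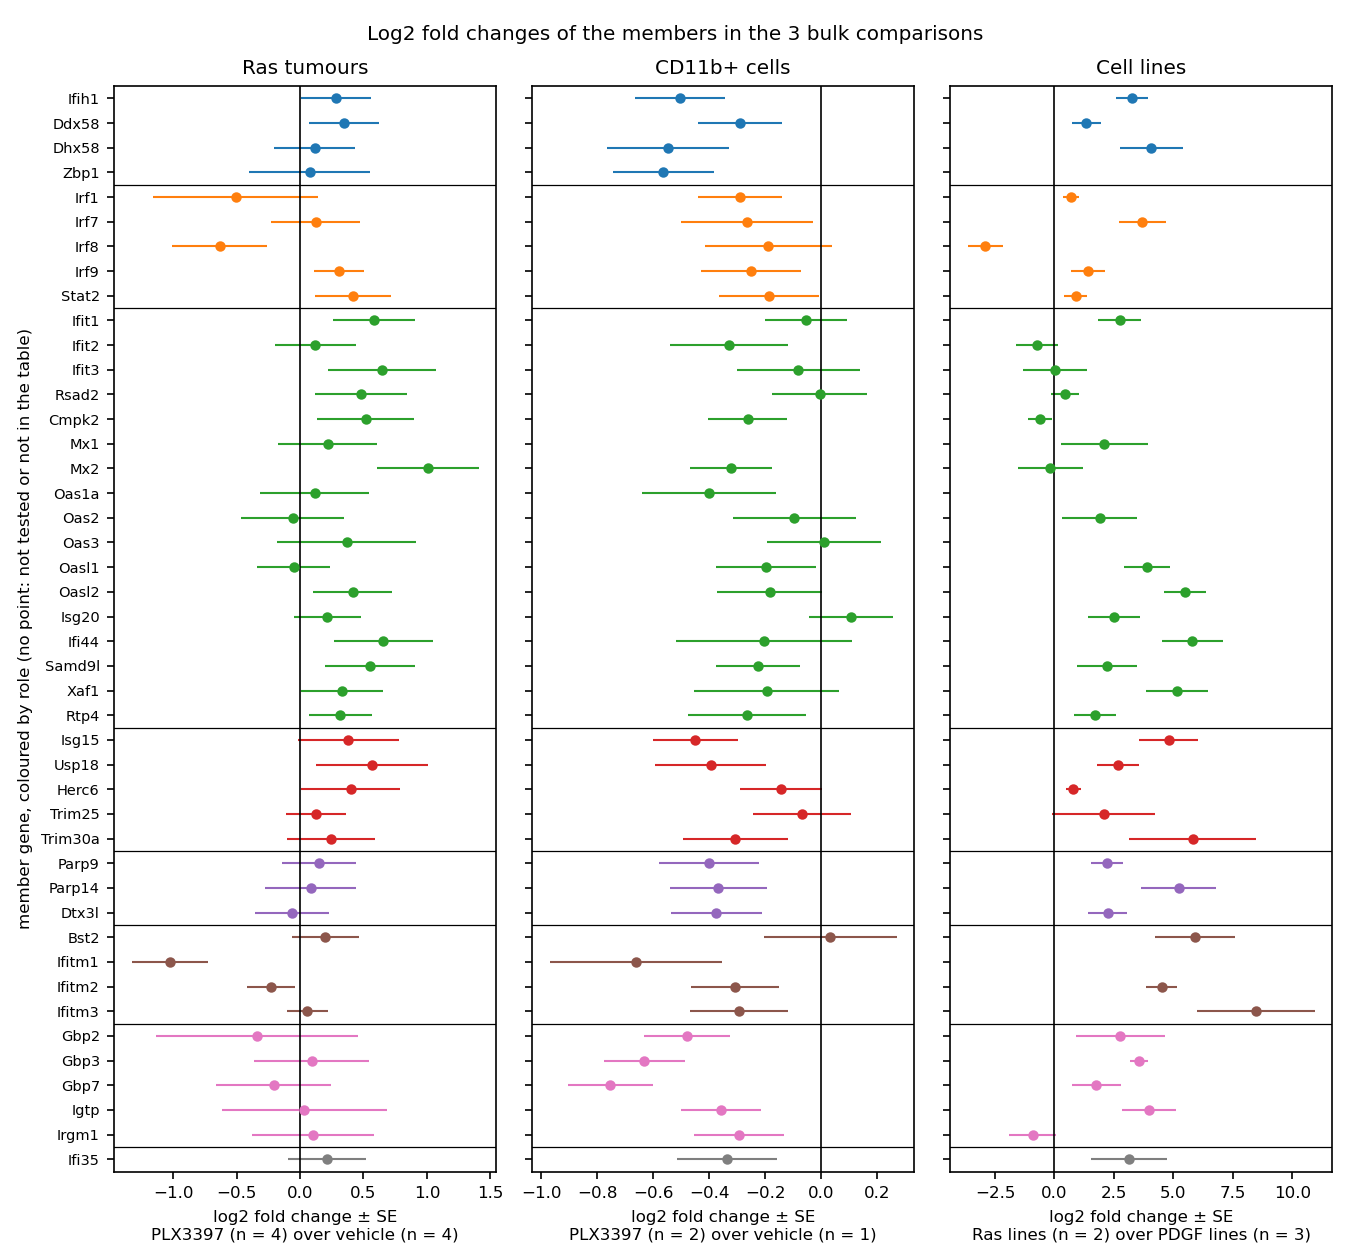
Points are log2 fold changes with their SE as bars, by member and role, for PLX3397 over vehicle in Ras tumours (n = 4 each), PLX3397 (n = 2) over vehicle (n = 1) in CD11b+ cells, and Ras lines (n = 2) over PDGF lines (n = 3); each panel has its own axis. Most points lie above 0 in the tumours, below 0 in the CD11b+ cells and far above 0 in the lines, with Irf8 the lowest of the lines.

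Set side by side, 31 of the 43 members tested in both were above 0 in the Ras tumours and below 0 in the CD11b+ cells. Another 3 were above 0 in both, 9 were below 0 in both, and 0 had the reverse pattern. Of the members tested in each, 35 of 44 were above 0 in the tumours and 40 of 43 below 0 in the CD11b+ cells. A count near 31 follows from those shares alone, and the share of all genes with this pattern was not computed. In no member were the libraries apart in opposite directions. In the tumours they were apart for Ifitm1 alone, so this says nothing about the other members. The tumour type, the drug's duration and the material differ as well, the tables were normalized separately, and the difference between the effects was not tested. Gbp7 (-0.21 in tumours, -0.75 in CD11b+ cells), Irf8 (-0.63 and -0.19) and Ifitm1 (-1.03 and -0.66) were among the 9 below 0 in both.

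The third comparison set lines grown from Ras tumours against lines grown from PDGF tumours, cultures in which the leukocyte gene Ptprc was at most 1.93 CPM. No member passed the test. Most members were highest in Ras line 1, with Ifitm3, Bst2, Trim30a and Ifi44 at the largest fold changes, while Irf8 was highest in the PDGF lines. Of 40 members tested (Oas1a, Oas3, Ifitm1 and Zbp1 were too low), 0 were called, against 0 of 17475 genes (0%). At an unadjusted p under 0.05 were 18 members on the higher side, against 8.80% of all genes, and 1, Irf8, on the lower, against 7.46%. The fold change was above 0 for 35 of 40 members (87.5%), against 50.9% of all genes, with a median of 2.38 against 0.01. Both Ras lines were above all PDGF lines for 21 members, against 17.9% of all genes, and below them for 1, against 20.6%.

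The Ras lines were unlike each other. The summed level was 1530 CPM in Ras line 1 and 424 CPM in Ras line 2, against 249.7, 476 and 297 CPM in PDGF lines 1 to 3, and Ras line 1 was highest for 35 of the 44 members. Without Ras line 1 the median was 0.54, with 0 members called. Without Ras line 2 it was 3.23, and edgeR then called 19 members among 2111 genes, on the assumption that the remaining Ras line varies as PDGF lines do. DESeq2 called 18 members among 2110 genes on all 5 lines. The count of calls thus hangs on the tool and on Ras line 2. Ddx3y was low in Ras line 1 and PDGF line 1 (1.27 and 0.519 CPM) and at 29.9 to 63.6 CPM in the other lines. Hras had 72.5 and 165 CPM in the Ras lines, against 51.7, 47.0 and 53.9 CPM in the PDGF lines, and counts by gene do not tell HRasV12 from the native gene.

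**Figure D3:**
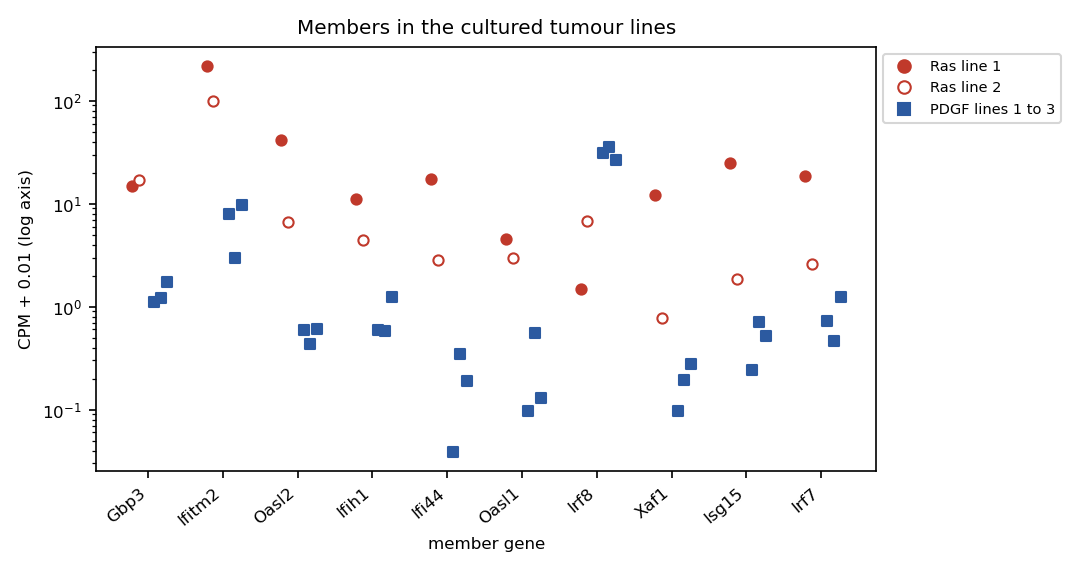
CPM + 0.01 on a log axis for the 10 members with the smallest p-values between the lines, with Ras line 1 filled, Ras line 2 open and the 3 PDGF lines as squares. For Gbp3 the Ras lines agree, at 14.7 and 16.8 CPM; for the other genes that are high in Ras lines, Ras line 2 lies below line 1, and Irf8 is the 1 gene with the PDGF lines on top.

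Gbp3 had the smallest p of the members, and its Ras lines stood close together. It had 14.7 and 16.8 CPM in the Ras lines, against 1.1, 1.21 and 1.72 CPM in the PDGF lines (log2 fold change 3.55, SE 0.39, adjusted p = 0.204 by the edgeR test). Both Ras lines were far above all PDGF lines. Gbp7 had 15 and 16.9 CPM in the Ras lines, against 6.29, 0.545 and 7.29 CPM in the PDGF lines (1.76). Igtp (3.97) also had the Ras lines on top, Gbp2 (2.78) overlapped, and Irgm1 had 63.1 and 30.5 CPM in the Ras lines, against 24.6, 195 and 45.9 CPM in the PDGF lines (-0.92), with PDGF line 2 above the rest. The GTPases thus differed in pattern among themselves.

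Among the membrane proteins, Ifitm2 had 216 and 99.5 CPM in the Ras lines, against 7.93, 2.97 and 9.8 CPM in the PDGF lines (4.51, SE 0.65, adjusted p = 0.204 by the edgeR test), with both Ras lines far above. Ifitm3 had 315 and 1.81 CPM in the Ras lines, against 0.115, 0.0606 and 1.16 CPM in the PDGF lines (8.47, SE 2.48). Ras line 2 there was much nearer to the PDGF lines than to Ras line 1, as it was for Bst2, which had 75.9 and 3.54 CPM in the Ras lines, against 0.75, 0.0606 and 1.16 CPM in the PDGF lines (5.91, SE 1.69).

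Oasl2, an OAS-like protein, had 41.5 and 6.67 CPM in the Ras lines, against 0.577, 0.424 and 0.592 CPM in the PDGF lines (5.49, SE 0.89, adjusted p = 0.205 by the edgeR test). Its neighbour Oasl1 had 4.53 and 2.95 CPM in the Ras lines, against 0.0866, 0.545 and 0.118 CPM in the PDGF lines (3.89, SE 0.95). Ifi44 had 17.5 and 2.86 CPM in the Ras lines, against 0.0289, 0.333 and 0.178 CPM in the PDGF lines (5.80, SE 1.27). Both Ras lines were above the PDGF lines for these 3 genes, Ras line 1 most. Xaf1, linked to cell death, had 12.1 and 0.769 CPM in the Ras lines, against 0.0866, 0.182 and 0.267 CPM in the PDGF lines (5.15, SE 1.31). Ifit1 (2.74, SE 0.91) and Samd9l (2.21, SE 1.27) also had both Ras lines above the PDGF lines, Samd9l by little, at 5.26 CPM in Ras line 2 against 5.21 CPM in PDGF line 3. Ifit2 had 6 and 53.7 CPM in the Ras lines, against 51.9, 49.7 and 45.9 CPM in the PDGF lines (-0.72), with Ras line 1 alone low, and Rsad2 had 4.07 and 7.01 CPM in the Ras lines, against 6.23, 3.61 and 2.31 CPM in the PDGF lines (0.45). These genes overlapped between the lines, as did Cmpk2 (-0.63), Mx2 (-0.18) and Ifit3 (0.01). The Oas genes proper were near the floor, with at most 0.815 CPM for Oas2 in any line.

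Of the sensors, Ifih1 had 11 and 4.4 CPM in the Ras lines, against 0.577, 0.576 and 1.24 CPM in the PDGF lines (3.26, SE 0.67, adjusted p = 0.213 by the edgeR test), again with both Ras lines on top. Isg15 had 24.9 and 1.84 CPM in the Ras lines, against 0.231, 0.697 and 0.504 CPM in the PDGF lines (4.80, SE 1.22). Irf7 had 18.5 and 2.58 CPM in the Ras lines, against 0.721, 0.454 and 1.24 CPM in the PDGF lines (3.70, SE 0.99). In both genes Ras line 2 was nearer to the PDGF lines than to Ras line 1. Trim25 had 89.3 and 0 CPM in the Ras lines, against 6.06, 7.76 and 18.2 CPM in the PDGF lines, where the 0 of Ras line 2 allows up to 0.0919 CPM, and Trim30a had 26.9 and 0.0307 CPM in the Ras lines, against 0, 0.0606 and 0.652 CPM in the PDGF lines. These ubiquitin ligases were high in Ras line 1 and at the bottom or near it in Ras line 2. Parp14 (5.22), Dtx3l (2.24) and Parp9 (2.20) each had both Ras lines above all PDGF lines.

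Irf8 had the lowest fold change. It had 1.48 and 6.8 CPM in the Ras lines, against 31.3, 35.5 and 26.6 CPM in the PDGF lines (-2.91, SE 0.74, adjusted p = 0.228 by the edgeR test), with every PDGF line above both Ras lines. Of the leukocyte genes, Ptprc was at 0 and 0.0615 CPM in the Ras lines, against 0, 0.121 and 1.93 CPM in the PDGF lines, and Csf1r at 0.302 and 0 CPM, against 0, 0.0606 and 4.80 CPM. Both were highest in PDGF line 3, and their part in the Irf8 values was not tested. Irf1 (0.69), Irf9 (1.42) and Stat2 (0.89) were moderately above 0 and overlapped.

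In the upstream list 28 genes were tested between the lines, and 0 were called, against 0 of 17475 genes. By the edgeR test 5 had an unadjusted p under 0.05, all higher, against 8.80% of all genes on that side. The median was 0.60. Tmem173, the STING adaptor, had 153 and 122 CPM in the Ras lines, against 11.3, 34.2 and 17.7 CPM in the PDGF lines (2.71), and Tlr3, a receptor for double-stranded RNA, had 42.4 and 56.6 CPM in the Ras lines, against 2.45, 10.9 and 7.38 CPM in the PDGF lines (2.84). Both Ras lines were above the PDGF lines for each. No interferon gene of the list had a group mean above 0.0197 CPM in the lines, so the ligands were at or under the limit of counting there.

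The single cells of untreated Ras tumour tissue show which cells carry these transcripts. With 1 library per method there is no replicate and no test, and intervals are exact Poisson 95% intervals of counting error only. The 10x library held 59.3 M UMIs (unique molecular identifiers, 1 per captured molecule) in 4384 barcodes, of which 3320 were kept with a median of 8351 UMIs. All 43 listed members were detected, with 87867 UMIs or 16.1 per 10000 (15.95 to 16.2). Clusters were made without the members and named from marker genes. Bst2 is also in the marker list of plasmacytoid dendritic cells, a class that named no cluster. Levels differed widely between clusters. A cluster of 93 cells led by Cd209a and Chil3 had 118 member UMIs per 10000 (116 to 120) and 84 neutrophil-like cells had 107 (103 to 111). Macrophage-like cells (443) had 60.2 (59.5 to 60.8) and pericyte or fibroblast-like cells (55) 57.1 (56.0 to 58.3). Dividing cells (239), which carried the progenitor genes Sox2 and Ptprz1, had 3.64 (3.52 to 3.77), and erythroid-like cells (170) had 5.11 (4.54 to 5.74). The cluster led by Cd209a and Chil3 matched dendritic cell markers at the resolution used and monocyte markers at a finer one, and is called by its genes here.

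**Figure D4:**
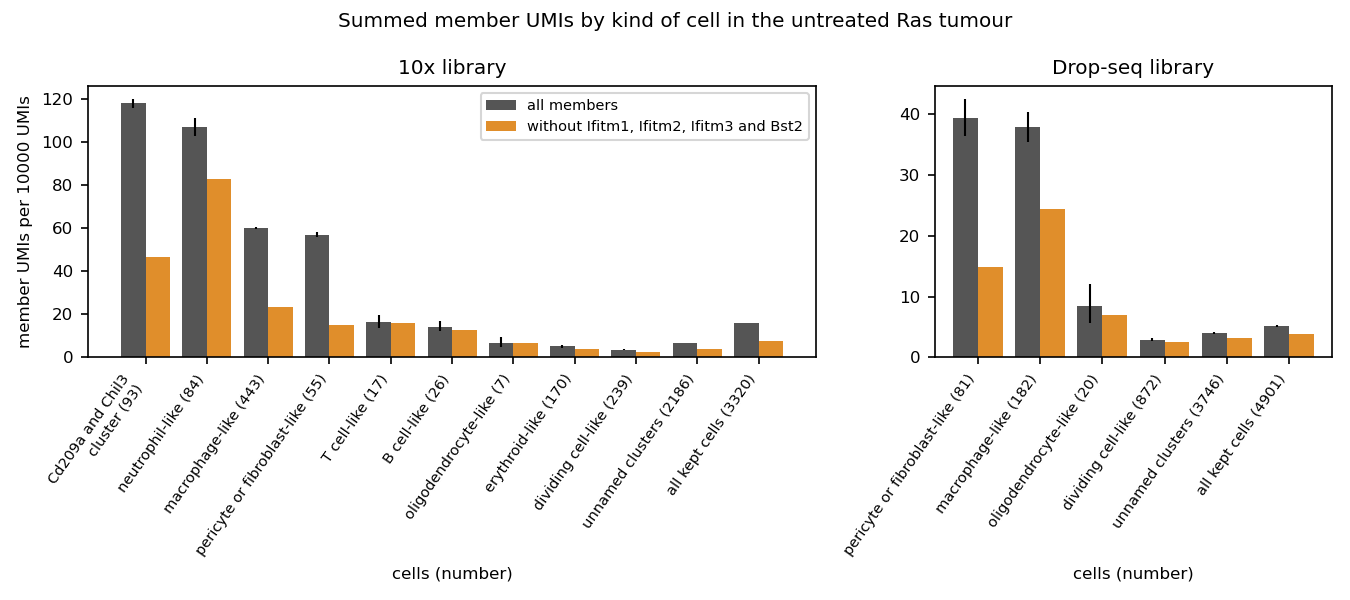
Bars give the member UMIs per 10000 UMIs by kind of cell, with the number of cells in brackets, for the 10x and Drop-seq libraries; dark bars are all members with exact Poisson 95% intervals (counting error only), orange bars leave out Ifitm1 to Ifitm3 and Bst2. Myeloid and stromal clusters are high and dividing cells and the pool of unnamed cells low in both libraries, and without the 4 membrane genes the neutrophil-like cells lead the 10x library at 83.1 per 10000.

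Macrophage-like cells were 13.3% of the kept cells and held 38.6% of the member UMIs, while the unnamed clusters were 65.8% of the cells and held 28.2%. The unnamed clusters were unlike one another. The summed level was 20.7 per 10000 in 38 cells led by Alb, 12.5 in 383 cells led by Krt16 and Edn2, which held 10408 member UMIs, and 9.66 in 576 cells with the platelet genes Ppbp and Gp9 among their leading genes. In the other unnamed clusters it was 6.58 in 231 cells, 5.07 in 505 cells and 4.31 in 453 cells. Small classes were less sure, with 16.5 per 10000 in 17 T cell-like cells, 14.3 in 26 B cell-like cells and 6.91 in 7 oligodendrocyte-like cells. Thinned to 3000 UMIs a cell, the median number of member UMIs was 22 in the cluster led by Cd209a and Chil3 (81 unthinned, 3 shallower cells left out), 13 in macrophage-like cells (22 unthinned, 159 left out) and 1 in dividing cells (7 unthinned, 24 left out). Too few neutrophil-like cells were deep enough to be thinned.

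Different members marked different cells. Ifitm3 was the most abundant, with 21442 UMIs, and had 34.7 per 10000 in the cluster led by Cd209a and Chil3, 26.6 in pericyte or fibroblast-like cells, 16.8 in macrophage-like cells, 8.58 in neutrophil-like cells and 0.286 in dividing cells. Ifitm2 (11600 UMIs) and Ifitm1 (6443) were highest in the same cluster, at 13.8 and 19.6 per 10000. Ifitm1 was at 0.0116 per 10000 in dividing cells. Ifitm3 was detected in 86% of macrophage-like cells (82.4 to 89.1) with a median depth of 5419 UMIs, against 9.41% of erythroid-like cells (5.48 to 14.8) at 2327 UMIs. The erythroid-like class was taken as the level of free RNA, which was not tested. Its summed member level, 5.11 per 10000, was above the 3.64 of dividing cells. The low sum of dividing cells therefore cannot be told apart from free RNA. Bst2 (7253 UMIs) was highest in macrophage-like cells at 7.00 per 10000, against 0.132 in dividing cells.

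Neutrophil-like cells had the highest level of most members. Of 43 members, 30 had their highest level there among the 6 named classes of at least 50 cells, 9 in the cluster led by Cd209a and Chil3, and 2 each in macrophage-like and pericyte or fibroblast-like cells. Rsad2 (2183 UMIs) had 14.5 per 10000 in neutrophil-like cells, 6.24 in the Cd209a and Chil3 cluster and 1.40 in macrophage-like cells. Isg15 (3959 UMIs) had 13.7, 5.62 and 2.14 in those classes, and 0.104 in dividing cells. Oasl2 had 7.23 and Ifit1 5.92 in neutrophil-like cells. These levels were uneven between cells. The highest 8 of 84 neutrophil-like cells held 53.2% of the class's member UMIs, with a median of 52.9 per 10000 and a 90th percentile of 277. For Rsad2, 1 cell gave 299 of the 703 UMIs of the Cd209a and Chil3 cluster, and 1 cell gave 297 of the 789 of macrophage-like cells.

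Irf8 (4090 UMIs) had another order, with 4.85 per 10000 in the 17 T cell-like cells, 3.49 in the Cd209a and Chil3 cluster, 3.36 in macrophage-like, 2.72 in B cell-like and 0.159 in neutrophil-like cells. It was also present in dividing cells, at 0.300. Between macrophage-like and dividing cells, Irgm1 (2212 UMIs), Trim25 (1996) and Ifit2 (1722) differed least among the leading members. They were at 0.430, 0.655 and 0.797 per 10000 in macrophage-like cells and 0.318, 0.221 and 0.315 in dividing cells. Among the 6 named classes of at least 50 cells, each of these genes was highest in neutrophil-like cells. The lowest members were Oas2, with 72 UMIs, and Oas3, with 133.

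**Figure D5:**
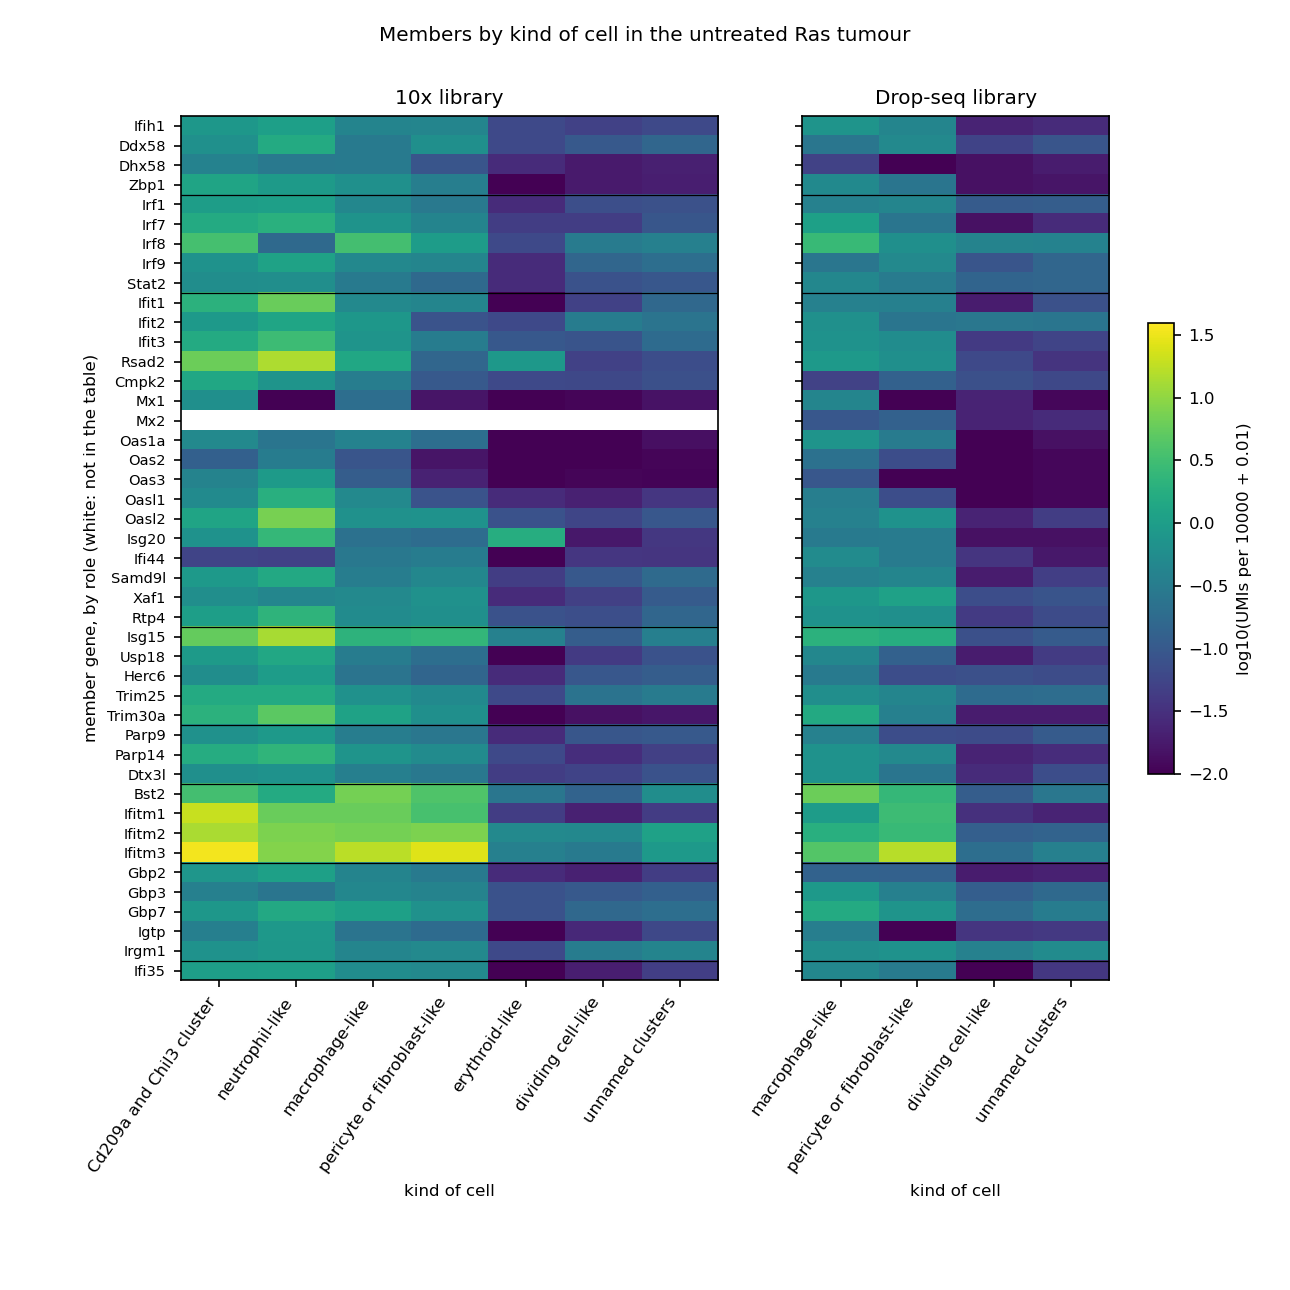
Each row is a member, grouped by role, and each column a class of cells; colour gives log10(UMIs per 10000 + 0.01) in the 10x and Drop-seq libraries, and white marks a gene that is not in the table. The Ifitm genes are bright in the cluster led by Cd209a and Chil3, Rsad2 and Isg15 in neutrophil-like cells, and dividing cells are dark for most members.

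The Drop-seq library, at 9.67 M UMIs in 5000 barcodes (4901 kept, median 1396), gave 4968 member UMIs, or 5.20 per 10000 (5.06 to 5.35). It had no cluster like the neutrophils or the Cd209a and Chil3 cells. Pericyte or fibroblast-like cells (81), among whose leading genes were the endothelial Cldn5 and Cdh5, had 39.3 per 10000 (36.3 to 42.4) and macrophage-like cells (182), with immunoglobulin genes such as Igkc among their leading genes, had 37.8 (35.4 to 40.3), against 2.92 (2.70 to 3.15) in dividing cells (872) and 3.99 in the unnamed cells (3746). Macrophage-like cells held the highest level of 31 of 44 members among the 3 named classes of at least 50 cells, and pericyte or fibroblast-like cells that of 13. Ifitm3 (668 UMIs) was at 16.4 per 10000 in pericyte or fibroblast-like and 4.35 in macrophage-like cells, and Bst2 at 2.48 and 6.28. Irf8 (424) was at 2.64 in macrophage-like and 0.403 in dividing cells, Isg15 (161) at 2.05 and 0.0657. Irgm1 (480) was at 0.586 and 0.377, Gbp7 (305) at 1.59 and 0.184, Ifit2 (244) at 0.628 and 0.258, Ifitm2 (205) at 1.84 and 0.114, Trim25 (186) at 0.586 and 0.171, and Gbp3 (163) at 0.837 and 0.109. The libraries shared 0 barcodes.

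Interferon ligands were close to undetected in the single cells. In the 10x library Ifnb1 had 4 UMIs, Ifng 1 and Ifna2 1, and in the Drop-seq library Ifng had 2. Receptors were widespread: Ifnar2 was at 0.97 per 10000 in 10x macrophage-like cells and 0.24 in dividing cells, and Ifngr1 at 1.36 and 0.25.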

How the data were processed

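Each bulk table holds deposited counts, whole numbers per gene name, and each single-cell table holds the authors' counts of UMIs per gene and barcode. Per the submitters' processing notes, GRCm38 was the build and the tools included STAR 2.6.1e and featureCounts 1.6.2, Cell Ranger for the 10x library, cutadapt 1.9.1, FastQC 0.11.7 and Trim Galore 0.4.2; their settings, strand included, are not given in the sources used here. Low counts (1 to 10) were even in 62.8% to 69.4% of cases in the tumour and line tables and in 39.9% to 41.9% in the CD11b+ table, which was described and not modelled. Entries with no gene name or with a date for one (27, 1 and 27 in the tumour, CD11b+ and line tables, at most 0.360% of a library) were left out, as were 5 columns of the line table that match no sample.

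Comparisons were fitted separately in edgeR 4.0.16 (R 4.3.3) with TMM factors, its default filter on low counts and the robust quasi-likelihood test, which had been tested on simulated data; a gene was called at an adjusted p under 0.05. The CD11b+ fit leaves 1 residual degree of freedom. DESeq2 1.42.0 and limma 3.58.1 (voom with quality weights) served as alternatives. Members, roles, markers and the upstream list were chosen with earlier results of these data known. Members given in full are the 10 with the smallest p in a bulk comparison and the 10 with most UMIs in a single-cell library; others given by library, upstream genes included, were chosen after their values were seen.

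Single cells passed at 500 UMIs and 300 genes in 10x, and at 300 UMIs and 200 genes in Drop-seq, with mitochondrial UMIs of 20% or less. They were clustered without the members in scanpy 1.11.5 (Python 3.11.15; 2000 variable genes, 30 components, 15 neighbours, Leiden resolution 0.5). A class needed 3 markers raised 2-fold and a marker among a cluster's 10 leading genes. Doublets were not removed. Shares of cells carry Clopper-Pearson 95% intervals. Same-numbered tumours correlated at 0.0106, 0.138, -0.454 and 0.550 in their deviations from group means, so the numbers do not pair them.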

Additional observations from a re-analysis of the deposited data

Results flagged for a closer look

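Over 88 groups of 4 tumours (44 members under PLX3397 and under vehicle), the gap between an extreme tumour and its nearest neighbour was a larger share of the group's range than Dixon's 95% critical value in 3, where chance gives about 1 in 20. All 3 were vehicle tumour 1 at the high end. Gbp2 was at 906 CPM there, against 71.8 to 182 CPM in the other vehicle tumours (share 0.867). Irf1 was at 288 CPM, against 39.2 to 71.4 CPM (0.870). Ifitm1 was at 46.2 CPM, against 21.8 to 25.6 CPM (0.844). Ifng was at 3.79 CPM in the same tumour and at 0 to 0.442 CPM in the other vehicle tumours, and the part of any cell type in these values was not tested. Ifitm1 was lower in each PLX3397 tumour than in the 3 other vehicle tumours as well, and its fold change ran from -1.22 to -0.70 as single tumours were left out.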

How the results depend on the processing

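In the Ras tumours 0 members were called under each alternative run: other size factors, DESeq2 (169 genes called), no filter (1 gene), sample quality weights (377 genes), Ddx3y as a covariate, the replicate block and each tumour left out, with medians from 0.028 to 0.486. With the replicate block the median was 0.19 in the tumours and 2.37 in the lines, with 0 genes called in both, and it changed no call; no paired analysis was possible for the CD11b+ cells because their groups share 1 number. In the CD11b+ cells DESeq2 called 1968 genes and 1 member, and no filter 1907 genes and 2 members; the medians with either PLX3397 library left out were -0.367 and -0.189, with no test. In the lines DESeq2 called 2110 genes and 18 members, no filter 1 gene and 0 members, and leaving out single lines gave 0 to 2111 genes, 0 to 19 members and medians of 0.541 to 3.23. Of 290 recomputed fold changes of the 10 named members in each comparison, all kept their sign; 3 in the CD11b+ cells and 19 in the lines passed the threshold, and 0 in the tumours. The cause was not tested. The 10 named members were chosen by the smallest p in these same data. Their kept signs therefore do not test the direction of the members at large. In the 10x cells, at most 10% mitochondrial UMIs gave 17.2 member UMIs per 10000 over all cells. That setting gave 62.0 in macrophage-like and 59.4 in pericyte or fibroblast-like cells. Resolution 1.0 gave 10.8 in an oligodendrocyte-like class of 162 cells led by Sntn, against 7 cells in that class at 0.5. No class was named macrophage-like at 1.0, though unnamed clusters of 272 and 159 cells each had 11 macrophage markers raised. Without Ifitm1 to Ifitm3 and Bst2 the 10x values were 7.52 over all cells, 46.7 in the Cd209a and Chil3 cluster, 2.75 in dividing, 4.00 in erythroid-like, 23.4 in macrophage-like, 83.1 in neutrophil-like and 15.3 in pericyte or fibroblast-like cells, and the Drop-seq values 3.79, 2.48 in dividing, 24.3 in macrophage-like and 14.8 in pericyte or fibroblast-like cells. With 4 tumours a side or fewer libraries, differences within the spread between libraries are not detectable, and intervals of single cells cover counting error only.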
